A study of Mus musculus with 24 samples.

Results

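The livers and hearts of wild-type mice were compared gene by gene, by where each gene ranked among all transcripts of its tissue. All 6 arrays of WT liver (pools 1 to 3 from males and 7 to 9 from females) were set against all 6 arrays of WT heart with the same pool numbers, 12 of the 24 arrays of the series. The mice were SV129 animals with an intact Ppara gene, about 10 to 12 weeks old and killed at zeitgeber time 14 (ZT14). For every array the RNA of 4 animals was pooled, 12 animals of each sex and genotype gave their livers and hearts, and the sexes and tissues form 4 groups of 3 arrays. The remaining 12 arrays, from Ppara knockout (KO) mice of the same strain, ages and pool scheme, gave the same tissue contrast in other animals. Nothing says how animals were assigned to pools, and the p-values measure the spread between pools of this colony.

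The deposited log2 intensities of the tissues were distributed apart, at a median of 2.45 for the livers and 3.04 for the hearts, so that a liver value cannot be set beside a heart value. Each array was therefore turned into percentile ranks over its 45037 probe sets that were not array controls, where 0 is the dimmest and 100 the brightest. The difference given for a gene is its mean percentile in liver minus that in heart, in percentile points, with its standard error from limma over the 12 arrays. A rank says where a transcript stands among the others of its tissue and gives no fold change. The scale is narrow at the top, where a gene among the brightest of both tissues can differ by only a few points. Transcripts that the animals lack show where background lies. The 9 probe sets of the Y-linked genes Kdm5d, Uty and Eif2s3y ranked between 0.296 and 41.6 in female liver and at 35.7 or below in female heart, and the 3 probe sets of Xist between 6.14 and 56.9 in male liver and between 16.0 and 71.0 in male heart. A rank inside these ranges is not told apart from that of an absent transcript.

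Liver and heart are both large users of fatty acids, and they use them for different ends. The liver makes and releases glucose, ketone bodies, lipoproteins, bile acids and urea, and takes up drugs and bile acids from blood. The heart imports fatty acids, lactate, glucose and ketone bodies and oxidizes them to drive contraction, whose machinery is the sarcomere with its thick and thin filaments, the Z-disc that anchors them, and the calcium stores that trigger each beat. Many enzymes of fuel metabolism come in related forms from separate genes, with a liver form and a muscle form.

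Arrays of the same tissue resembled each other more than arrays of different tissues. Rank correlations between arrays lay from 0.925 to 0.957 among livers, from 0.965 to 0.973 among hearts and from 0.733 to 0.763 across tissues. Of the probe sets in the top 1% on every array of a tissue, 370 in liver and 405 in heart, 135 were shared, which is 36.5% of the liver set and 33.3% of the heart set. Hybridization control transcripts, which are added alike to every array, show how far equal amounts can lie apart on this scale. Among their 18 probe sets 15 ranked higher in liver, by up to 13.3 points, whereas the 7 that stood at 98 or above in both tissues differed by at most 0.254. The log2 excess of 3′ over 5′ controls, a measure of RNA integrity, was larger in liver, with 1.11 to 1.47 log2 units for Actb against 0.451 to 0.630 in heart, and 0.446 to 0.617 for Gapdh against 0.134 to 0.193. Since this measure moves with tissue on every array, its part in the differences cannot be told apart from tissue.

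Across 18193 genes, each read by the probe set of highest mean rank, 5942 (32.7%) ranked higher in liver and 5578 (30.7%) higher in heart at an adjusted p under 0.05 in limma. Many of these differences are small. Of the genes higher in liver 3278, and of those higher in heart 3153, differed by no more than the 13.3 points seen between added controls. A stricter description was therefore used as well. A gene is called set apart where it passed the test, differed by at least 25 points and had no overlap between its 6 liver and 6 heart arrays. By this rule 999 genes (5.49%) were set apart toward liver and 1058 (5.82%) toward heart, and the median difference over all genes was 0.423 points. In bulk tissue, fewer cells of a type and less RNA per cell cannot be told apart.

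**Figure D1:**
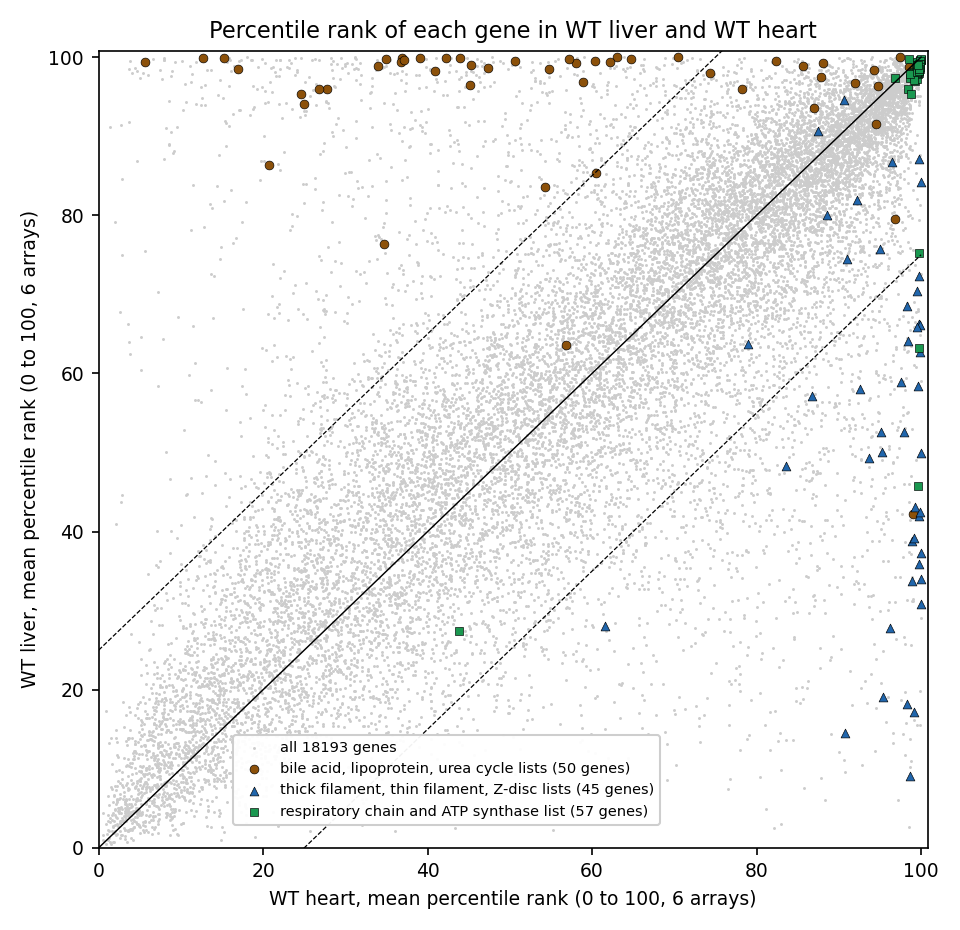
Mean percentile rank of each of 18193 genes in WT heart (x axis) and WT liver (y axis), with each mean over 6 arrays, the solid line marking equal rank and the dashed lines a difference of 25 points. Most bile acid, lipoprotein and urea cycle genes (brown circles) lie along the top edge, most contractile genes (blue triangles) along the right edge, and most of the respiratory chain (green squares) in the top right corner, where both tissues rank high.

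The labels were checked on the defining markers of each organ. All 14 measured hepatocyte markers ranked higher in liver, where their mean on single arrays lay between 99.6 and 99.7, against 37.4 to 48.2 in heart. All 12 cardiomyocyte markers ranked higher in heart, with array means of 99.1 to 99.3 against 40.7 to 49.4 in liver. Other cell types also moved with tissue. All 10 endothelial markers (90.6 to 91.0 in heart and 67.1 to 72.8 in liver), all 9 fibroblast markers (93.2 to 94.3 and 70.4 to 75.4) and 4 of 5 smooth muscle markers (86.0 to 87.3 and 55.2 to 66.3) ranked higher in heart, with 1 of the latter higher in liver. Markers of the liver's own sinusoidal endothelium were higher in liver for 5 of 6 genes, and 1, Lyve1, was higher in heart, with list means of 79.9 to 85.5 in liver and 57.8 to 63.9 in heart. Of 10 Kupffer cell and macrophage markers 5 were higher in liver and 3 in heart, with list means of 73.7 to 83.2 and 59.8 to 65.8.

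Of 6 adipocyte markers 3 ranked higher in heart and 1 in liver, with list means of 54.3 to 62.5 in heart and 34.8 to 40.3 in liver. Adipoq, the fat hormone adiponectin, singled out after its values were seen, ranked between 87.3 and 96.3 in heart (median 94.4) and between 3.34 and 17.8 in liver (median 10.6). Lep, another hormone of fat cells, stood at 24.3 in heart and 19.9 in liver. Skeletal muscle markers gave 3 of 12 higher in heart and 2 in liver, with list means of 45.7 to 52.0 in heart and 42.5 to 52.9 in liver, and the cholangiocyte list gave 1 of 5 in heart and 2 in liver (42.3 to 48.0 and 48.8 to 52.5). Of 3 erythroid genes 2 were higher in heart and none in liver (57.7 to 68.4 and 54.1 to 66.0), and of 6 lymphocyte genes 2 were higher in liver and none in heart (51.6 to 60.1 in heart and 55.2 to 58.1 in liver).

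**Figure D2:**
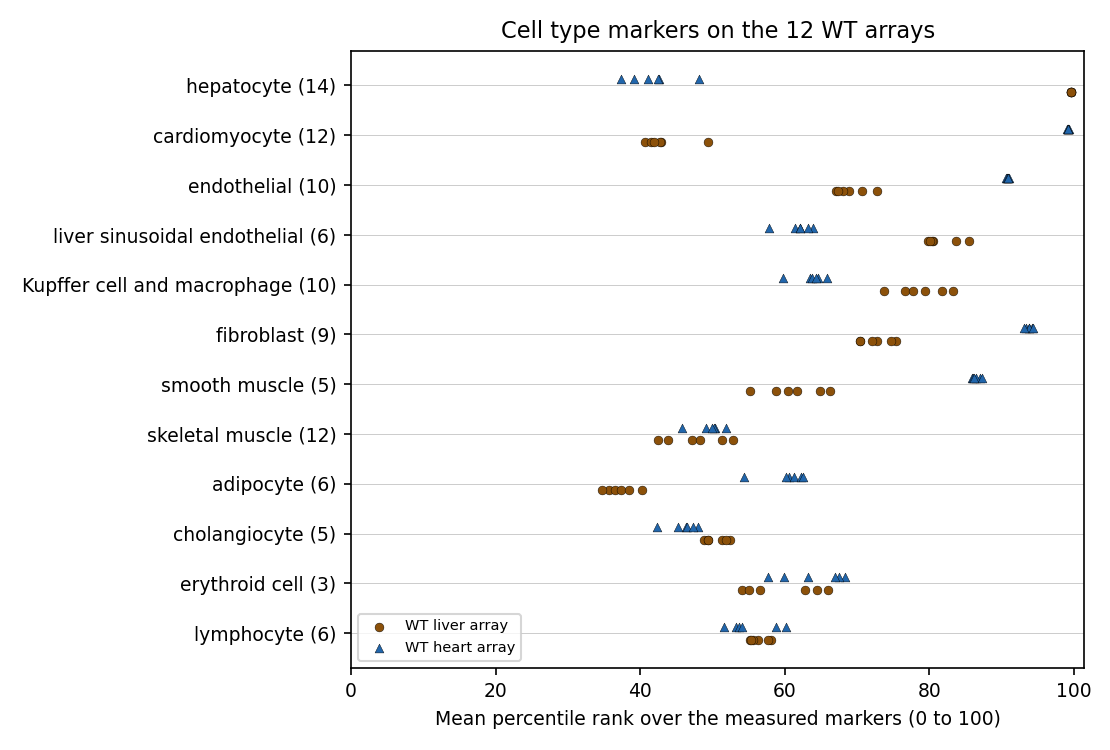
Mean percentile rank over the measured markers of 12 cell types (x axis, 0 to 100), with 1 circle for each WT liver array and 1 triangle for each WT heart array, and the number of genes in brackets. Hepatocyte and cardiomyocyte means do not overlap between tissues, and neither do those of endothelium, fibroblasts, smooth muscle and fat, higher in heart, or of sinusoidal endothelium, Kupffer cells and cholangiocytes, higher in liver.

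The 10 largest differences each way are given as examples. On the liver side, Ugt2b5, which joins glucuronic acid to steroids and drugs, ranked between 99.3 and 99.72 in liver (median 99.5) and between 2.49 and 9.27 in heart (median 2.80), a difference of 95.7 points (SE 1.07, adjusted p = 2.37e-11 in limma). The others were Hsd17b13, a lipid droplet enzyme, at 94.8 points, Aass of lysine breakdown at 94.2, the sulfotransferase Sult1d1 at 93.9, the urea cycle enzyme Otc at 93.7, the glycolate oxidase Hao1 at 93.5, the cytochromes P450 Cyp2c29 at 93.2 and Cyp3a11 at 92.0, clotting factor F9 at 92.6 and the uridine phosphorylase Upp2 at 92.3. On the heart side Tecrl, a reticulum protein of cardiac muscle, ranked between 98.3 and 98.7 in heart (median 98.5) and between 0.268 and 5.73 in liver (median 2.35), a difference of -95.8 points (SE 0.886, adjusted p = 1.03e-11 in limma). The others were Tmem182 at -91.1, the actin-binding Nexn at -89.6, Art3 at -88.5, Myzap of the intercalated disc at -87.8, Mlf1 at -86.3, Sh3bgr at -84.9, the atrial hormone gene Nppa at -84.4, Smpx of striated muscle at -83.9 and Cpe, which trims peptide hormones, at -83.4. All 20 passed the limma test, with no overlap between tissues on any array. In the lower tissue all 20 lay at 31.2 or below, within the range of absent transcripts, so no order is read among them. One of the 2 probe sets of Art3 passed in the opposite direction.

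Of 28 measured nuclear receptors, coactivators and tissue factors, 9 were higher in liver and 18 in heart, beside 32.7% and 30.7% of all genes, and the share toward liver is near that of all genes. Foxa3 and Foxa1, which open chromatin at liver genes, ranked at 93.3 ± 1.80 and 87.1 ± 2.17 (SD, n = 6) in liver and at 10.2 ± 6.37 and 7.89 ± 8.32 in heart. Tbx20, a T-box factor of the heart, ranked between 83.5 and 88.6 in heart (median 86.6) and between 8.53 and 39.0 in liver (median 19.0), and Esrrg, an orphan receptor of oxidative muscle, between 82.7 and 86.7 (median 85.8) and between 1.77 and 36.6 (median 23.2). Their differences were -65.9 (SE 3.99, adjusted p = 4.91e-07 in limma) and -65.1 points (SE 3.66, adjusted p = 2.98e-07). Ppara itself ranked high in both, from 97.3 to 97.8 in liver against 91.0 to 93.8 in heart, without overlap (5.07 points, SE 0.443, adjusted p = 6.24e-06 in limma).

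Motif letters in promoters are given as a description, with no test. RefSeq promoters of build GRCm38.p6, from 250 bases before to 50 after a start site, were at hand for 27025 genes, among them 1582 of the 2057 genes set apart (777 toward liver and 805 toward heart), and 8 motifs were searched on both strands. The liver factor HNF1 (letters GTTAATNAT) had a match in 3.60% of the promoters of genes set apart toward liver, 0.248% of those toward heart and 0.940% of all. For HNF4 (CAAAGTCCA) the shares were 1.93%, 0.248% and 0.555%, and for C/EBP (TTGCGCAA, TTGTGCAA or TTGCACAA) 2.32%, 0.994% and 1.34%. The muscle factor MEF2 (CTATTTTTA or CTATTTATA) had a match in 0.386% of promoters toward liver, 3.11% toward heart and 1.06% of all. The MCAT element of muscle genes (ACATTCCT) gave 1.29%, 2.24% and 1.58%, and the CArG box bound by SRF (CCATATTAG, CCTTATATG, CCATATATG or CCTAATATG) 0.257%, 0.745% and 0.533%. The TATA box (TATAAA), whose letters lie within CTATTTATA read from the other strand, gave 16.6%, 14.5% and 15.7%, and the E-box CACGTG 9.65%, 9.44% and 8.09%. A match in these letters is no bound site.

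The stretches below hold such a match, in capitals, in promoters of 8 well-known genes that were set apart, with up to 40 bases to either side and none past the start site. They were picked after the matches and the ranks were known, to show what the letters look like in their surroundings, 5′ to 3′ along the gene's strand. Alb, serum albumin (chr5:90460798-90460869, plus strand, HNF1), G6pc, which frees glucose (chr11:101367466-101367543, plus strand, HNF1), Gckr, the regulator of glucokinase (chr5:31297464-31297552, plus strand, HNF1), and Cyp8b1 of bile acid synthesis (chr9:121916324-121916412, minus strand, HNF4) were set apart toward liver.
Alb: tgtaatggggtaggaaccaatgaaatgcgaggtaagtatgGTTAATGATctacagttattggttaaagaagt
G6pc: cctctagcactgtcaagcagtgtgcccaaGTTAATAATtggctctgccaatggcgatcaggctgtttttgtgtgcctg
Gckr: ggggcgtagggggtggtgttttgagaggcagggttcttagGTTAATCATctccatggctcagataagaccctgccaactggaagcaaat
Cyp8b1: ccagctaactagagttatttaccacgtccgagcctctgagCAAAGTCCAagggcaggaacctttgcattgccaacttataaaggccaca
The glycolytic enzyme Pgam2 (chr11:5803828-5803916, minus strand, MEF2), the myosin Myh7b (chr2:155611041-155611129, plus strand, MEF2), the main myosin of the adult mouse heart Myh6 (chr14:54966767-54966854, minus strand, MCAT) and cardiac troponin T Tnnt2 (chr1:135836266-135836333, plus strand, MCAT) were set apart toward heart.
Pgam2: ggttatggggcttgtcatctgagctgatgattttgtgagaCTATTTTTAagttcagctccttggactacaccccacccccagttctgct
Myh7b: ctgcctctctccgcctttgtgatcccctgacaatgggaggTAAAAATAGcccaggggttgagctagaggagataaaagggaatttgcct
Myh6: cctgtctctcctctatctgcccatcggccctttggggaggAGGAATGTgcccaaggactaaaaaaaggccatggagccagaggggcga
Tnnt2: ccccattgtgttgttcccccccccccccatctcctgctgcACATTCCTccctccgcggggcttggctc
The HNF1 letters lie 32 to 24 bases before the start site of Alb, 59 to 51 before that of Gckr and 221 to 213 before that of G6pc. The MEF2 letters lie 80 to 72 bases before the start of Pgam2 and 162 to 154 before that of Myh7b, read there from the other strand.
Alb ranked above 99.9 on every liver array and between 44.6 and 80.6 in heart (median 56.7), and Myh6 above 99.9 on every heart array and between 17.1 and 59.1 in liver (median 33.2).

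Bile acid, cholesterol, lipoprotein and urea cycle genes ranked higher in liver. Each list below is read against the 32.7% of all genes that were higher in liver and the 30.7% higher in heart, and against the 5.49% and 5.82% set apart. All 13 measured genes of bile acid synthesis were higher in liver, 9 of them set apart, with a median of 51.2 points. Nr1h4, the bile acid receptor, ranked from 95.2 to 95.6 in liver against 18.8 to 31.8 in heart (70.8 points, SE 2.25, adjusted p = 9.09e-09 in limma). Cyp7b1, a hydroxylase of the alternative pathway, ranked from 90.8 to 99.59 in liver (median 96.4) and from 21.2 to 35.6 in heart (69.1 points, SE 1.46, adjusted p = 1.10e-09 in limma). All 18 genes of cholesterol synthesis were higher in liver as well, 8 set apart, with a median of 23.2 points, led by Sqle at 62.6 (SE 3.27) and Cyp51 at 54.0 (SE 3.30), an epoxidase and a demethylase of the pathway.

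Lipoprotein genes followed, with 18 of 20 higher in liver and 2 in heart, 14 and 1 set apart, and a median of 37.1 points. The apolipoproteins Apoc2 and Apoc3, which set how fast lipoproteins lose triglyceride, ranked at 98.9 ± 0.0981 and 99.94 ± 0.0105 (SD, n = 6) in liver and at 33.9 ± 8.60 and 36.9 ± 7.76 in heart. The 2 genes higher in heart were Vldlr, a receptor for triglyceride-rich particles, at -56.8 points (SE 1.83, adjusted p = 9.94e-09 in limma) and Pltp, which moves phospholipid between particles, at -3.00 (SE 0.612, adjusted p = 0.00195). Vldlr differed between the sexes in liver, as given further on. In the urea cycle and amino acid breakdown, 15 of 17 were higher in liver and 1 in heart, 10 set apart toward liver, with a median of 42.5 points. Otc ranked from 99.3 to 99.4 in liver against 1.89 to 15.9 in heart, and Arg1, which releases urea, from 99.87 to 99.92 and from 4.64 to 26.3 (87.2 points, SE 2.92, adjusted p = 1.26e-08 in limma). The gene higher in heart was Bcat2, which starts the breakdown of branched-chain amino acids in mitochondria, at -17.4 points (SE 0.736, adjusted p = 4.92e-08).

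**Figure D3:**
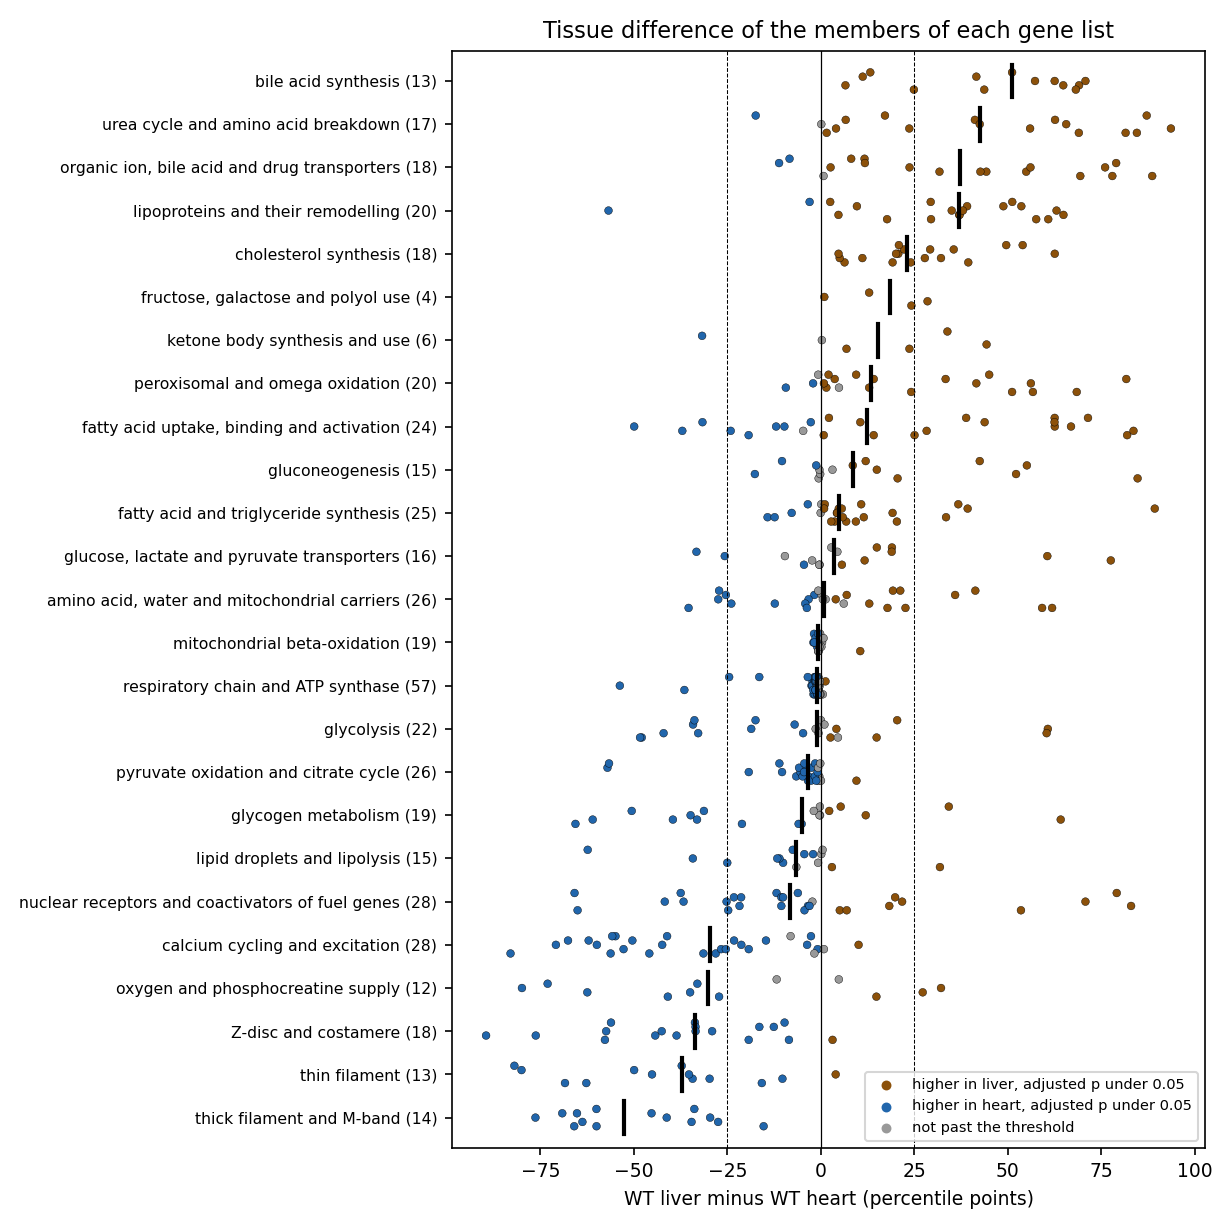
Difference between WT liver and WT heart in percentile points (x axis) for the measured members of 25 gene lists (number in brackets), 1 point per gene with a black bar at the list's median, brown for higher in liver, blue for higher in heart and grey for genes not past the threshold, and dashed lines 25 points to either side of 0. Bile acid synthesis has the highest median at 51.2 points and the thick filament the lowest at -52.6, while most genes of beta-oxidation and the respiratory chain rank at 95 or above in both tissues, where only a few points of difference are possible.

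Fatty acid handling split by step. Among 24 genes of uptake, binding and activation, 15 were higher in liver and 8 in heart, with 10 and 3 set apart and a median of 12.4 points. The binding proteins that carry fatty acids in the cytosol traded places. Fabp1, the liver form, ranked at 99.96 or above on every liver array and between 2.81 and 34.6 in heart (median 19.4), a difference of 82.0 points (SE 4.70, adjusted p = 3.41e-07 in limma). Fabp3, the heart form, ranked at 99.93 or above on every heart array and between 40.9 and 56.5 in liver (median 50.04), a difference of -49.9 points (SE 2.15, adjusted p = 5.40e-08 in limma). Fabp2, the intestinal form, ranked from 94.0 to 94.8 in liver against 3.01 to 22.9 in heart. The carrier and acyl-CoA synthetase Slc27a5, which also acts on bile acids, was higher in liver by 62.6 points (SE 3.77), and Slc27a1, the form of muscle and fat, higher in heart by a difference of -24.1 (SE 0.804).

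Lipoprotein lipase and CD36, which free and import fatty acids at the vessel wall, ranked high in heart. Lpl stood at 99.94 or above on every heart array and between 23.8 and 80.4 in liver (median 67.5), where female pool 8 was lowest and the other 5 lay at 64.7 or above. The difference was -37.1 points (SE 6.74, adjusted p = 9.60e-04 in limma). Cd36 ranked from 98.8 to 99.1 in heart and from 68.6 to 90.9 in liver (median 79.9), a difference of -19.3 points (SE 0.844, adjusted p = 6.09e-08 in limma). All 10 endothelial markers and 3 of 6 adipocyte markers were higher in heart as given above (1 adipocyte marker was higher in liver), and their part in the difference was not tested.

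In the list of fatty acid and triglyceride synthesis, 19 of 25 were higher in liver and 4 in heart, with 4 set apart toward liver and none toward heart, and a median of 4.81 points. Elovl2, which lengthens polyunsaturated fatty acids, ranked from 98.1 to 98.4 in liver against 4.96 to 20.9 in heart (89.4 points, SE 2.4, adjusted p = 3.83e-09 in limma). The desaturase Fads2 was higher in liver by 39.3 points (SE 0.667). Scd2, a stearoyl-CoA desaturase, and Lpin3, a phosphatidate phosphatase, were higher in heart, with differences of -14.2 (SE 1.41) and -12.4 points (SE 3.02). The difference of Lpin3 was smaller in size than the 13.3 points seen between added controls. All of its heart ranks, at 62.6 or below, lay within the range of absent transcripts. In liver Lpin3 ranked at 58.9 or below, near or within that range, and overlapped with heart. Acetyl-CoA carboxylase comes as Acaca, which feeds synthesis, and Acacb, whose product restrains the entry of fatty acids into mitochondria. Acaca was higher in liver by 11.5 points (SE 0.788, adjusted p = 1.14e-06 in limma), and Acacb had a difference of -7.79 (SE 0.574, adjusted p = 1.87e-06), but 1 of its 2 probe sets passed in the opposite direction and the mean of both gave 6.59 points.

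Mitochondrial beta-oxidation, by contrast, ranked near the top of both tissues. Of 19 measured genes 17 had means of 95 or above in liver and in heart. Only Cpt1a was higher in liver, 7 were higher in heart and 11 did not pass, none was set apart, and the median was -0.701 points. Since the scale is narrow near its top, genes that did not pass are not shown to be alike in both tissues. Cpt1a, the liver form of the enzyme that admits fatty acids to mitochondria, ranked from 98.1 to 98.6 in liver against 85.9 to 89.0 in heart (10.6 points, SE 0.520, adjusted p = 1.29e-07 in limma). The lowest values were those of Hadha, a subunit of the trifunctional protein, at -1.98 (SE 0.286) and the long-chain dehydrogenase Acadl at -1.82 (SE 0.289). Cpt1b, the muscle form of the entry enzyme, was not analysed here. Oxidation in peroxisomes and at the omega carbon leaned to liver, with 16 of 20 higher there and 2 in heart, 7 set apart toward liver and a median of 13.5 points. Cyp4a14, an omega hydroxylase, ranked from 70.6 to 98.7 in liver (median 93.4) and from 0.783 to 12.9 in heart (median 10.2), and Acaa1b, a peroxisomal thiolase, from 99.61 to 99.85 and from 21.0 to 41.8. The differences were 81.7 (SE 3.54, adjusted p = 5.73e-08 in limma) and 68.5 points (SE 3.10, adjusted p = 7.61e-08). Crat and Ech1 were higher in heart, at -9.36 (SE 0.672) and -2.07 points (SE 0.298).

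Ketone bodies are made in liver and burnt in heart. Of 6 measured genes of ketone body metabolism, 4 were higher in liver and 1 in heart, with 2 and 1 set apart. Oxct1, which activates ketone bodies for oxidation, ranked from 99.55 to 99.67 in heart and from 59.9 to 74.2 in liver (median 67.5), a difference of -31.8 points (SE 2.43, adjusted p = 2.45e-06 in limma). Bdh2 and Bdh1, dehydrogenases of hydroxybutyrate, were higher in liver by 44.4 (SE 2.92) and 6.87 points (SE 0.814), and Aacs, which returns ketone bodies to lipid synthesis, by 33.9 (SE 0.857). The hormone gene Fgf21 ranked from 54.7 to 78.5 in liver against 29.1 to 60.0 in heart, with overlap (23.7 points, SE 4.23, adjusted p = 8.44e-04 in limma). Acat1 had 98.9 in liver and 98.6 in heart and did not pass (adjusted p = 0.422).

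Lipid droplet genes leaned to heart, with 9 of 15 higher there and 2 in liver, 3 and 1 set apart and a median of -6.54 points. The CIDE proteins, which fuse droplets, took opposite sides. Cideb ranked from 98.1 to 98.3 in liver against 63.6 to 69.8 in heart (31.9 points, SE 0.882, adjusted p = 4.48e-09 in limma), and Cidea from 17.2 to 31.1 in liver against 86.6 to 88.5 in heart (-62.4 points, SE 1.52, adjusted p = 2.42e-09). Of the coat proteins, Plin4 was higher in heart at -34.2 points (SE 2.00). Plin2 was higher in liver by 2.98 (SE 0.321), less than the spread between added controls. Cidea and Plin4 are also made in fat, of whose 6 markers 3 were higher in heart and 1 in liver, and their part was not tested.

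Glucose is carried across membranes by transporters of separate tissue forms. Slc2a2, the low-affinity glucose transporter of liver, ranked from 98.5 to 98.7 there and from 12.9 to 28.8 in heart (median 20.2), and Slc2a4, the insulin-responsive transporter of muscle and fat, from 99.03 to 99.14 in heart and from 58.0 to 74.9 in liver (median 65.5). The differences were 77.6 (SE 2.24, adjusted p = 5.60e-09 in limma) and -33.3 points (SE 2.01, adjusted p = 4.76e-07). Slc2a1, the widespread transporter, was higher in liver by 5.64 points (SE 0.790, adjusted p = 1.72e-04), less than the spread of the added controls, the call was lost on median-centred log2 values (adjusted p = 0.838), and 1 of its 3 probe sets passed in the opposite direction. Of 16 transporters of glucose, lactate and pyruvate, 7 were higher in liver and 3 in heart, 2 and 2 set apart, with a median of 3.62 points. Slc16a7, a carrier of lactate and pyruvate, ranked from 88.4 to 94.3 in liver against 18.5 to 45.9 in heart (60.6 points, SE 4.78), and Slc2a10 stood at 53.6 or below on every array of both tissues (-25.7 points, SE 2.53, but 1.29 and not past the test without probe sets whose names end in _s_at or _x_at).

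In glycolysis 6 of 22 genes were higher in liver and 10 in heart, 2 and 6 set apart, with a median of -1.0 points. Hexokinases trap glucose in the cell. Hk1 ranked from 96.2 to 96.9 in heart and from 38.3 to 63.9 in liver (-47.9 points, SE 4.11, adjusted p = 5.49e-06 in limma), and Hk2 from 97.7 to 97.9 and from 44.4 to 62.4 (-42.1 points, SE 3.09, adjusted p = 1.81e-06). Gckr, which holds the liver's glucokinase in check, ranked from 96.9 to 97.3 in liver against 25.8 to 45.5 in heart (60.4 points, SE 1.75, adjusted p = 5.64e-09), while glucokinase itself was not analysed here. Aldoc, an aldolase, was higher in liver by 60.7 points (SE 3.54), and the phosphofructokinase Pfkp higher in heart at -48.4 (SE 2.26). The muscle forms Pgam2, Eno3 and Pkm ranked at 99.2 or above on every heart array and between 59.2 and 73.4 in liver, with differences of -32.8 (SE 1.42), -34.2 (SE 1.84) and -33.8 points (SE 2.04).

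Gluconeogenesis leaned to liver, with 8 of 15 higher there and 3 in heart, 4 set apart toward liver and a median of 8.55 points. G6pc, the last step of glucose release, ranked from 97.6 to 99.2 in liver against 10.7 to 19.6 in heart (84.8 points, SE 1.23, adjusted p = 1.09e-10 in limma). Its widespread relative G6pc3 was higher in heart at -17.6 points (SE 0.836). Fbp1 ranked from 99.86 to 99.90 in liver against 30.0 to 52.1 in heart, and its muscle form Fbp2 from 66.1 to 70.2 and from 76.6 to 81.2. Their differences were 55.1 (SE 3.53, adjusted p = 7.12e-07 in limma) and -10.4 points (SE 1.01, adjusted p = 1.29e-05). Among 4 measured genes of fructose and galactose use, all 4 passed toward liver, namely Tkfc at 28.6 points (SE 1.17), Khk at 24.2 (SE 0.557), Glyctk at 12.9 (SE 0.670) and Galt at 0.939 (SE 0.338), the last with an adjusted p of 0.0353 in limma and no call under 12 of 24 alternatives.

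Glycogen is stored and broken down by separate enzyme forms in the organs. Glycogen synthase is Gys2 in liver and Gys1 in muscle. Gys2 ranked from 97.0 to 97.6 in liver against 29.8 to 38.1 in heart, and Gys1 from 94.2 to 95.5 in heart and from 72.2 to 75.4 in liver, with differences of 64.2 (SE 1.49, adjusted p = 1.90e-09 in limma) and -21.1 points (SE 0.411, adjusted p = 7.22e-10). The phosphorylases behaved alike. Pygl, the liver form, ranked from 98.6 to 98.9 in liver against 59.6 to 69.3 in heart, and Pygm, the muscle form, from 99.03 to 99.14 in heart and from 2.83 to 46.6 in liver, where male pool 1 was lowest. Their differences were 34.2 (SE 1.68, adjusted p = 1.23e-07 in limma) and -65.6 points (SE 6.87, adjusted p = 2.23e-05). Phosphorylase kinase, which switches them on, had its muscle subunits Phka1 and Phkg1 higher in heart at -31.3 (SE 3.24) and -39.6 points (SE 2.42). The means of Phkg1, 66.3 in heart and 26.7 in liver, lay within the range of absent transcripts in both tissues. The subunit Phkg2 was higher in liver by 12.0 (SE 0.732), and Phka2 stood at 80.1 and 80.3 in liver and heart. Ppp1r3d, which targets a phosphatase to glycogen, was higher in heart at -61.0 points (SE 1.87). In all, 5 of 19 glycogen genes were higher in liver and 10 in heart, 2 and 7 set apart, with a median of -5.12 points.

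The exchange of forms was counted over 28 listed pairs of a liver or widespread form and a muscle form. Both members were measured for 20 pairs. In 13 of them the first was higher in liver and the second in heart, in 6 the first did not pass and the second was higher in heart, and in 1, Pfkl and Pfkm of phosphofructokinase, both were higher in heart, at -7.00 (SE 0.397) and -17.5 points (SE 0.476). Among the 13 pairs, the liver-side differences of Pgam1, Cox6a1, Bcat1, Acss2, Acaca and Phkg2 were under the 13.3 points seen between added controls. So were the heart-side differences of Acacb and Fbp2 in size, and Phkg1 lay within the range of absent transcripts in both tissues. Calls of Cox6a1, Bcat1 and Acaca were lost under some alternatives, and Acacb turned with the probe set. Of 25 muscle forms measured, 24 were higher in heart, beside 30.7% of all genes, none in liver and 1 did not pass. Among 21 first members 14 were higher in liver, beside 32.7% of all genes, 1 in heart and 6 did not pass. Of those 6, Ldha, Cox7a2, Cox8a, Slc25a5 and Slc25a13 ranked at 96.4 or above on every array, where the scale is narrow, and passed under 4 to 6 alternatives each, among them quantile-normalized log2 values. They are thus not shown to be alike in the 2 tissues.

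**Figure D4:**
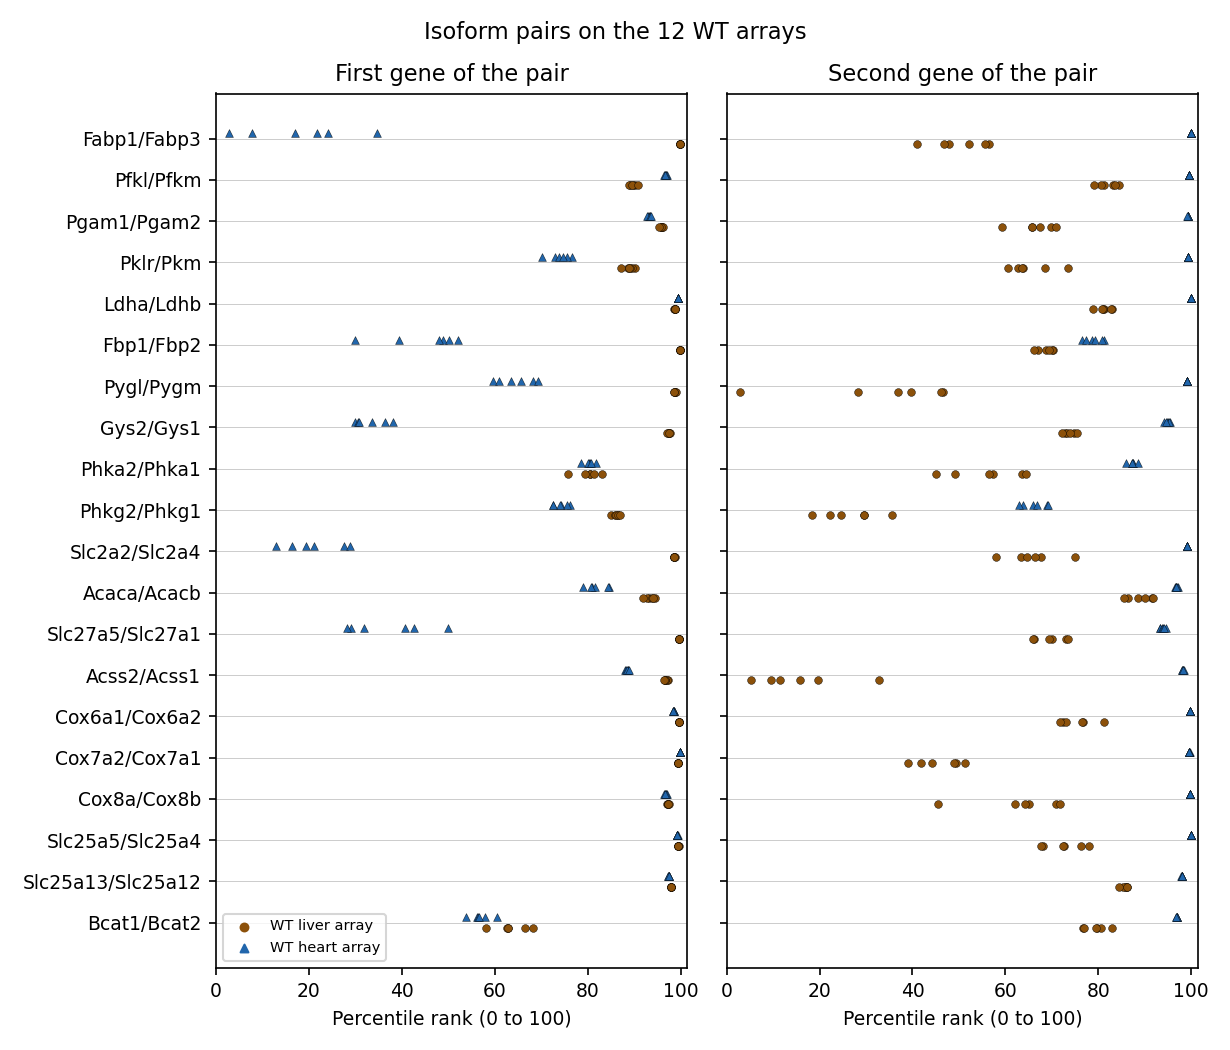
Percentile ranks (x axes, 0 to 100) on the 12 WT arrays for the 20 isoform pairs with both genes measured, the first gene of each pair on the left and the second on the right, with a circle for each liver array and a triangle for each heart array. The muscle forms on the right rank higher in heart for all 20 pairs, whereas on the left several pairs, such as the cytochrome oxidase subunits, rank near the top of both tissues.

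The acetyl-CoA synthetases activate acetate. Acss2, of cytosol and nucleus, ranked from 96.5 to 97.2 in liver against 88.0 to 89.0 in heart, and Acss1, of mitochondria, from 98.03 to 98.41 in heart and from 5.28 to 32.8 in liver (median 13.6). The differences were 8.31 (SE 0.328, adjusted p = 3.22e-08 in limma) and -82.4 points (SE 3.84, adjusted p = 9.04e-08), and 1 of 3 probe sets of Acss1 passed toward liver. Lactate dehydrogenase has 2 main subunits. Ldha ranked from 98.7 to 98.9 in liver and at 99.4 in heart and did not pass (adjusted p = 0.0846), whereas Ldhb ranked at 99.86 or above on every heart array and from 78.8 to 83.0 in liver (-18.6 points, SE 0.697, adjusted p = 2.41e-08 in limma). Among the transaminases Bcat1 was higher in liver by 6.66 points (SE 1.76, adjusted p = 0.00845), a call lost under 3 of 24 alternatives, with 1 of its 3 probe sets in the opposite direction.

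The respiratory chain ranked high in both organs and highest in heart. Of 57 measured subunits 53 had means of 95 or above in both. In all, 36 were higher in heart, 1 in liver and 20 did not pass, with a median of -0.980 points and 2 set apart. On the narrow upper part of the scale, subunits that did not pass are not shown to be alike in both tissues. The 2 set apart are muscle forms of cytochrome oxidase, the last enzyme of the chain. Cox7a1 ranked from 99.54 to 99.65 in heart and from 39.1 to 51.4 in liver (-53.8 points, SE 2.10, adjusted p = 3.03e-08 in limma), and Cox8b from 99.66 to 99.74 and from 45.5 to 71.7 (-36.5 points, SE 3.09, adjusted p = 5.00e-06). The third muscle form, Cox6a2, had -24.5 points (SE 1.46, adjusted p = 4.37e-07). Their partners Cox7a2, Cox8a and Cox6a1 ranked at 96.4 or above on every array of both tissues, with differences of -0.398 (SE 0.285, adjusted p = 0.252), 0.537 (SE 0.303, adjusted p = 0.152) and 1.26 points (SE 0.286, adjusted p = 0.00372).

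Pyruvate oxidation and the citrate cycle gave 20 of 26 higher in heart and 1 in liver, 2 set apart toward heart and a median of -3.35 points. The members that moved most regulate pyruvate dehydrogenase. Pdk4, the kinase that switches it off, ranked from 98.5 to 98.8 in heart and from 11.3 to 61.7 in liver (median 44.0), where male pool 1 was lowest and female pool 8 highest. The difference was -57.1 points (SE 5.45, adjusted p = 1.16e-05 in limma). Of the phosphatases that switch it on, Pdp1 was higher in heart at -56.7 points (SE 5.36) and Pdp2 in liver by 9.54 (SE 0.894).

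Of 18 organic ion, bile acid and drug transporters 15 were higher in liver and 2 in heart, 10 set apart toward liver, with a median of 37.2 points. Abcc2, which pumps conjugates into bile, ranked from 90.7 to 92.8 in liver against 0.385 to 6.65 in heart (88.7 points, SE 0.890, adjusted p = 1.36e-11 in limma), and Slco1b2, an importer of organic anions, from 99.2 to 99.4 and from 13.5 to 35.4 (79.0 points, SE 3.61, adjusted p = 7.94e-08). The 2 higher in heart were Abcc9, a subunit of the potassium channel gated by ATP, at -11.2 points (SE 0.550) and Abcb1a, a drug efflux pump, at -8.36 (SE 0.689), the latter higher in liver by 3.03 points in females alone. Amino acid, water and mitochondrial carriers were divided, with 11 of 26 higher in liver and 10 in heart, 4 and 4 set apart and a median of 0.923 points. Aqp9, a channel for glycerol, and Slc7a2, an importer of arginine, led toward liver with 61.9 (SE 0.986) and 59.2 points (SE 4.13).

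On the heart side, Slc25a4, the muscle form of the adenine nucleotide exchanger, ranked at 99.95 or above on every heart array and from 67.6 to 78.0 in liver (-27.4 points, SE 1.15, adjusted p = 4.58e-08 in limma), while the widespread Slc25a5 ranked at 99.2 or above on every array of both tissues (0.249 points, SE 0.286, adjusted p = 0.473). Ucp3, an uncoupling protein of muscle, had -35.4 points (SE 1.77). The aspartate carriers showed the same split, with Slc25a12 at -12.3 points (SE 0.384, adjusted p = 8.39e-09 in limma) and Slc25a13 at 0.548 (SE 0.285, adjusted p = 0.123).

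Contractile genes ranked higher in heart, with 1 exception in the thin filament and 1 at the Z-disc. All 14 genes of the thick filament and M-band were higher in heart, 13 set apart, with a median of -52.6 points. Myl2, the ventricular regulatory light chain, ranked at 99.99 or above on every heart array and from 19.9 to 49.8 in liver (median 28.6), a difference of -69.2 points (SE 4.25, adjusted p = 5.36e-07 in limma). Trim63, a ubiquitin ligase of the M-band, had -76.4 points (SE 3.49). Myh7, the slow myosin that the adult mouse heart keeps low beside Myh6, ranked from 90.5 to 93.7 in heart and from 53.0 to 65.6 in liver (-34.6 points, SE 1.54, adjusted p = 6.70e-08 in limma). Of 13 thin filament genes 12 were higher in heart, 10 set apart, and 1 in liver. Lmod2, which lengthens actin filaments, ranked from 99.1 to 99.2 in heart and from 5.20 to 30.6 in liver (-82.0 points, SE 3.93, adjusted p = 1.07e-07 in limma), and Nebl from 98.2 to 98.4 and from 10.2 to 26.9. The gene higher in liver was Tpm3, a tropomyosin of many cell types, by 3.98 points (SE 0.559), with 1 of 5 probe sets in the opposite direction.

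At the Z-disc and costamere 17 of 18 genes were higher in heart, 12 set apart, with a median of -33.6 points. Nexn ranked from 98.6 to 98.8 in heart and from 1.16 to 21.6 in liver, and Myot, myotilin, from 89.7 to 91.8 and from 5.45 to 27.2 (-76.3 points, SE 2.59, adjusted p = 1.37e-08 in limma). Pdlim5 was the gene higher in liver, by 3.15 points (SE 0.581), and its 7 probe sets were split, with 2 passing each way. For calcium cycling and excitation the count was 24 of 28 higher in heart and 1 in liver, 17 set apart, with a median of -29.8 points. Ryr2, the calcium release channel, ranked from 99.1 to 99.2 in heart and from 6.21 to 27.5 in liver (-83.0 points, SE 3.19, adjusted p = 2.77e-08 in limma). Pln, which restrains the calcium pump, ranked at 99.95 or above on every heart array and from 21.3 to 38.6 in liver (-70.9 points, SE 2.64, adjusted p = 2.31e-08). The pump itself, Atp2a2, chosen here after its values were seen, stood at 98.05 in liver and 98.90 in heart. Itpr2, another calcium channel, was higher in liver by 10.1 points (SE 1.53), with 1 of 6 probe sets in the opposite direction. Without probe sets whose names end in _s_at or _x_at its difference was -9.90 points.

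Supplies of high-energy phosphate were divided between making creatine and using it. Of 12 genes 7 were higher in heart and 3 in liver, 7 and 1 set apart, with a median of -30.1 points. Ckmt2, the mitochondrial creatine kinase of muscle, ranked from 99.81 to 99.85 in heart and from 10.7 to 29.1 in liver (-80.0 points, SE 2.09, adjusted p = 3.30e-09 in limma), and Ak1 from 98.7 to 98.9 and from 14.4 to 37.6 (-73.1 points, SE 3.10, adjusted p = 5.10e-08). Gamt and Gatm, which synthesize creatine, were higher in liver by 32.2 (SE 0.740) and 27.3 points (SE 5.19). Gatm overlapped between the tissues, with 51.6 on its lowest liver array and 52.1 on its highest heart array. All its heart ranks lay within the range of absent transcripts, and so did the liver arrays at 51.6 and 54.0.

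The tissue contrast was also tested within each sex and between the sexes. Within females 9837 genes (54.1%) passed and within males 9647 (53%), in either direction, with the variance taken from the joint fit of both sexes. Separate fits gave fewer, with 4760 higher in liver and 4337 in heart for females alone. For males alone they gave 4608 and 4378. Of the genes set apart, 993 of 999 toward liver and 1050 of 1058 toward heart passed in both sexes the same way. The contrast itself differed between the sexes for 26 genes (0.143%) in limma, 22 with a more positive difference in females and 4 with a more negative one. The largest were liver genes of females. The sulfotransferases Sult3a1 and Sult2a2 ranked at 99.81 and 99.45 in female liver (means of 3), at 20.9 and 23.3 in male liver and at 13.7 or below in both hearts. The tissue differences in females minus those in males were 80.9 (SE 9.01, adjusted p = 0.0109 in limma) and 80.1 points (SE 7.89, adjusted p = 0.00477). The organic anion transporter gene Slc22a27 (79.6 points, SE 2.63, adjusted p = 4.44e-06), the cytochrome P450 Cyp3a16 (74.3, SE 6.51, adjusted p = 0.00317) and the estrogen sulfotransferase Sult1e1 (71.1, SE 3.74, adjusted p = 9.13e-05) had the same pattern, with means of 83.0, 78.7 and 86.3 in female liver against 4.45, 3.16 and 24.4 in male liver.

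Toward males 4 genes passed, and genes that did not pass are not shown to be alike in the sexes. Fmn2 (-55.6 points, SE 5.29, adjusted p = 0.00435), Obp2a (-48.2, SE 4.62, adjusted p = 0.00435) and Mal2 (-23.2, SE 2.57, adjusted p = 0.0109 in limma) ranked at 72.9, 87.9 and 75.5 in male liver and at 21.9, 45.4 and 53.7 in female liver. Tmem236 (-16.0 points, SE 2.15, adjusted p = 0.0303) stood at 25.3 or below on every array, within the range of absent transcripts, and was not called under 16 of 21 alternatives. Among the lipid and transport genes above, Cd36, Vldlr and Abcb1a passed as well. Cd36 ranked from 87.0 to 90.9 in female liver against 68.6 to 72.8 in male liver and alike in both hearts, so that the tissue difference was -10.0 points in females and -28.6 in males (18.6 apart, SE 1.69, adjusted p = 0.00382 in limma). Vldlr had -37.3 points in females and -76.3 in males (38.9 apart, SE 3.66, adjusted p = 0.00435). Abcb1a had a difference of 3.03 points in females and -19.8 in males (22.8 apart, SE 1.38, adjusted p = 1.85e-04). The count of 26 moved with single arrays, to 16 without heart female pool 7 (Sult3a1 was then lost), 50 and 42 without liver female pools 7 and 9, and 45, 40 and 43 without liver male pools 1, 2 and 3. On quantile-normalized log2 values it was 272, and Vldlr turned to -5.15 without probe sets whose names end in _s_at or _x_at.

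**Figure D5:**
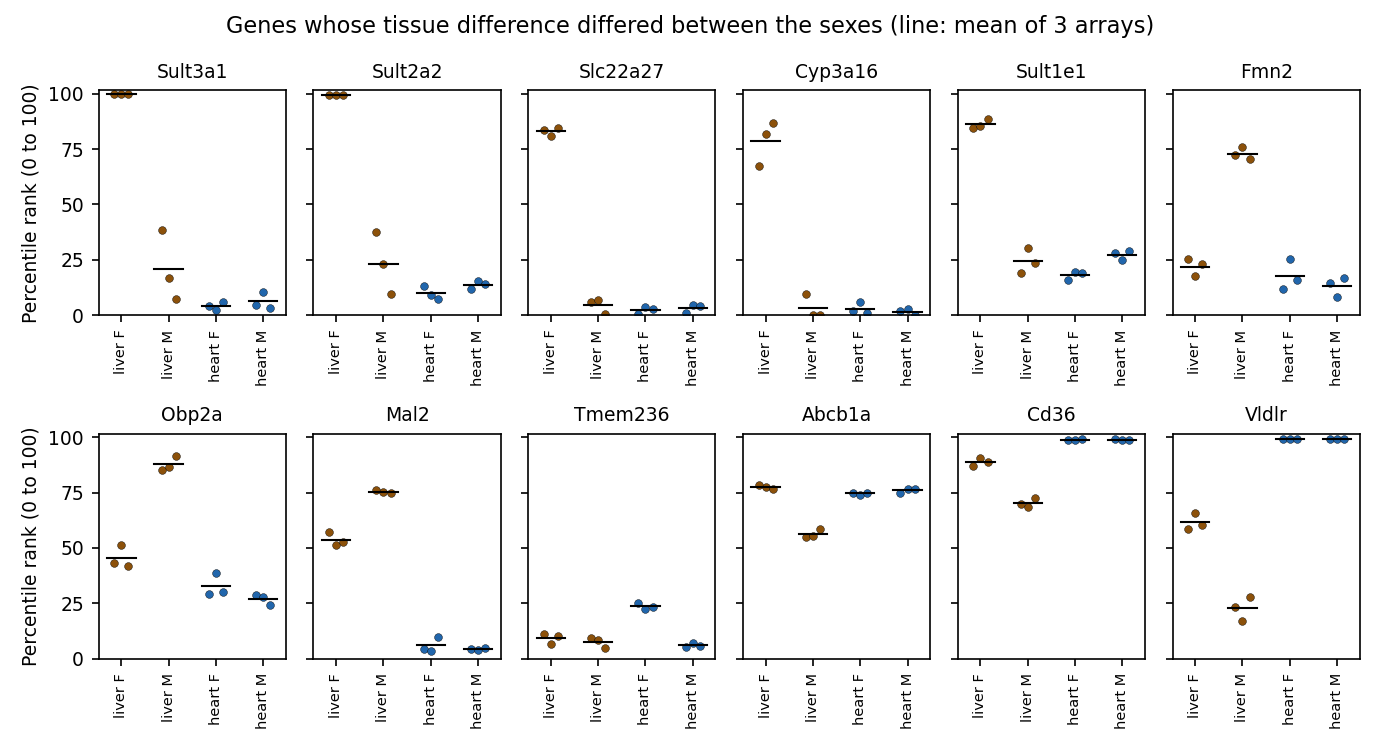
Percentile ranks (y axes, 0 to 100) by tissue and sex for the 12 genes described above whose tissue difference differed between females (F) and males (M), with 1 point per array and a line at the mean of 3. Sult3a1 stands at 99.81 in female liver and 20.9 in male liver, while Tmem236, at 25.3 or below on every array, lies within the range of absent transcripts.

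Ppara, the gene targeted in the KO mice, still ranked at 95.7 in KO liver and 84.7 in KO heart, against 97.6 and 92.5 in WT, and the sources used here do not say whether its probe set lies in the deleted stretch. The same contrast in the KO arrays, from other animals, gave 6036 genes (33.2%) higher in liver and 5277 (29%) higher in heart in limma. Of the genes set apart in WT mice, 994 of 999 toward liver and 1051 of 1058 toward heart passed in KO mice in the same direction. Elovl2, for example, stood at 98.2 in KO liver and 5.31 in KO heart, and Ckmt2 at 17.3 and 99.86. Without KO heart pool 4 the counts were 5759 and 5064. Some genes known as PPARα targets stood elsewhere in KO liver. Cyp4a14 ranked at 49.2 in KO liver, against 90.5 in WT liver, and Pdk4 at 76.9, against 41.5. Fbp2, higher in WT heart, stood at 65.4 in KO liver and 62.5 in KO heart and did not pass there (adjusted p = 0.208), and the same held for Slc2a10 (adjusted p = 0.160) and Lpin3 (adjusted p = 0.677). Whether the tissue difference itself differed between genotypes was not tested here.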

How the data were processed

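RNA of 24 pools was hybridized to Affymetrix mouse arrays, and the 12 WT and, for 1 comparison, the 12 KO arrays were used. The authors deposited log2 intensities of 45101 probe sets made with RMA, per the submitters' processing notes. Its version and whether tissues were normalized together are not given in the sources used here. RMA sets the arrays it processes to 1 distribution, so levels were not compared between tissues.

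Each array was ranked over 45037 probe sets, leaving out 64 controls. Of these, 34945 named 1 gene, 932 several and 9160 none in the platform annotation, and a gene was read by its single-gene probe set of highest mean percentile over the 12 WT arrays (18193 genes, 9010 with more than 1 probe set). limma 3.58.1 in R 4.3.3 fitted means per tissue and sex, and p-values (two-sided) were adjusted by Benjamini-Hochberg over all genes at 0.05. The code was tested on simulated data. There the shifted genes were drawn from the upper part of the intensity range, so dimmer genes were not covered. The set-apart rule caught 0%, 2.99% and 40.9% of those shifted by 1, 2 and 4 log2 units. A gene that is not set apart can therefore still differ strongly between the tissues. The number of arrays, 3 in each group, limits the precision.

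Genes named are the 10 largest differences each way among those set apart, the 2 largest each way among called members of each of 25 lists (every member of a list of 10 or fewer), both members of the isoform pairs, Ppara, Cd36, Cpt1a, Lpl, Pdk4, Slc2a1, Myh7 and Nppa, and the 5 largest each way by sex. Others named (Adipoq, Lep, Lyve1, Alb, Myh6, Tnnt2, Cyp8b1, Myh7b, Vldlr and Abcb1a by sex, Atp2a2) were chosen after their values were seen. Members and lists were chosen with earlier results of these data known. Of 525 list genes 481 were measured, and the others were not analysed here. Alternatives changed the scale, the probe sets, the variance model, the arrays and the replicate block.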

Additional observations from a re-analysis of the deposited data

Results flagged for a closer look

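In 74 list means over 6 arrays, an array far from the other 5 was looked for (Dixon's test at the 95% level, which chance passes in about 1 of 20 groups). It was found in 4. Cardiomyocyte markers in WT liver averaged 49.4 in female pool 9 and 40.7 to 42.9 in the other 5. Adipocyte markers in WT heart averaged 54.3 in male pool 1 and 60.1 to 62.5 in the others. The fatty acid uptake list in WT heart averaged 61.9 in female pool 8 and 64.0 to 64.6 in the others. The Z-disc list in WT heart averaged 93.1 in female pool 7 and 94.2 to 94.3 in the others.

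The tissue difference differed between females and males in limma for 12 genes named here. Females minus males, it came to 80.9 points for Sult3a1 (adjusted p = 0.0109), 80.1 for Sult2a2 (0.00477), 79.6 for Slc22a27 (4.44e-06), 74.3 for Cyp3a16 (0.00317) and 71.1 for Sult1e1 (9.13e-05). It came to 38.9 for Vldlr (0.00435), 22.8 for Abcb1a (1.85e-04) and 18.6 for Cd36 (0.00382). The negative values were -55.6 for Fmn2 (0.00435), -48.2 for Obp2a (0.00435), -23.2 for Mal2 (0.0109) and -16.0 for Tmem236 (0.0303). Among the 20 to 22 alternatives run for each, the call was lost under 16 for Tmem236, 4 for Mal2, 3 each for Cd36, Vldlr and Abcb1a, 2 each for Sult3a1, Cyp3a16 and Fmn2, and 1 each for Sult2a2, Sult1e1 and Obp2a. Slc22a27 kept its call under the 20 run for it.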

How the results depend on the processing

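Of 138 genes followed, 131 passed with all arrays, and 113 of these passed in the same direction under every alternative run, 24 at most. Calls were lost under 12 alternatives for Galt, 6 for Atp2a2, 3 for Bcat1 and 2 for Cox6a1, and under 1 for Acadl, Ech1, Fgf21, Lpin3 and Pltp (females alone), Gatm and Itpr2 (males alone), Acaca (mean of all probe sets) and Slc2a1 (median-centred log2, adjusted p = 0.838 in limma). Directions turned with the probe set or sex for 7, namely Abcb1a in females alone (3.03), Acacb (6.59), Acat1 (-1.28), Pdlim5 (-8.96) and Tpm3 (-1.12) with the mean of all probe sets, and Itpr2 (-9.90) and Slc2a10 (1.29) without _s_at and _x_at probe sets, which also turned Vldlr by sex to -5.15. Testing every probe set, which tests more features, gave 12170 higher in liver, 12052 in heart, 2081 and 2704 set apart, 45 by sex, 19365 in females and 19030 in males. The 26 genes by sex became 46 with normal scores, 272 with quantile-normalized and 271 with median-centred log2 values, 51 with ranks over gene probe sets, 71 with trended robust variance and 17 above a mean percentile of 50, and the cause was not tested. Leaving out 1 array gave 16 to 50 by sex, 5651 to 5814 higher in liver, 5308 to 5502 in heart, 996 to 1023 and 1046 to 1069 set apart, 8946 to 9863 in females and 8624 to 9710 in males.

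Pool numbers were not taken as pairs: deviations of same-numbered livers and hearts correlated from -0.0225 to 0.0280, those of other pools from -0.0492 to 0.0335, and 2 of 6 livers correlated best with their own number. With the pool number as a replicate block the counts were 5660 and 5246, with 999 and 1058 set apart and 2 by sex. Differences among genes near background are limited by signal.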
